A study of Mus musculus with 35 samples.

Results

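The step in histone H4 acetylation (H4ac) between 120 and 240 min of lipopolysaccharide (LPS) was examined in primary mouse macrophages by chromatin immunoprecipitation and sequencing. The libraries were the 2 H4ac libraries taken at 240 min of LPS and the 2 taken at 120 min, which are 4 of the 35 libraries of the series. They were chosen by the antibody and the time in their titles. All came from wild type C57BL/6 female mice of 8 to 12 weeks, whose bone marrow was cultured into macrophages (BMMs), and both times carry the same LPS treatment. The other libraries of the series profile the same kind of cell for H4ac before LPS and at 60 min, for RNA polymerase II (Pol II), for the transcription factors ATF3, p50 and p65, and for histone H3 trimethylated at lysine 27 (H3K27me3). The letter in a title, A or B, names the replicate here. The labels do not say whether the letters came from separate animals or cultures, so the spread between them may be technical.

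LPS, from the cell envelope of Gram-negative bacteria, activates macrophages through Toll-like receptor signalling. Acetyl groups are put on histone H4 by acetyltransferases and removed by deacetylases, and acetylated H4 is found mostly at active promoters and enhancers. ATF3 is a stress-induced transcription factor reported to bring a deacetylase to some inflammatory genes in macrophages. The p50 and p65 subunits of NF-κB enter the nucleus early after LPS, and p50, which lacks the activation domain of p65, can occupy sites in resting cells.

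Each library had 1 deposited list of regions on genome build mm9, with a position, a scale number and a score of the authors' own. The lists are nested, with narrow regions lying inside wide ones, and regions up to 10 kb were used. Regions of the 4 lists that overlapped by at least 1 bp were joined, which gave 19827 joined regions. A joined region was called gained if both 240 min lists and neither 120 min list held it, lost in the opposite case, and kept if all 4 lists held it. The lists hold no reads, so their depth cannot be known, and a region that a list lacks is described as not listed rather than as unacetylated. No gene is named for a region, because no mm9 annotation was used here.

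Letter A lists were longer than letter B lists at every time, and in both letters the 240 min list was longer than the 120 min list. Across the series the lists held 255 to 28522 regions of every width. In letter B the titles of all H4ac libraries open with 1 date. In letter A the title of the 240 min library opens with another date than that of the 120 min library, so in letter A the date and the time cannot be told apart, and values within letter B are the values within a date.

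The 240 min lists held 22313 regions up to 10 kb in letter A and 14327 in letter B, and the 120 min lists held 18429 in letter A and 11842 in letter B. The mean was 18320 ± 5647 regions at 240 min and 15136 ± 4658 at 120 min (SD, n = 2 each). The 240 min list was 1.21 times as long as the 120 min list in letter A and 1.21 times as long in letter B. The groups overlapped, since the 120 min list of letter A was longer than the 240 min list of letter B. The difference was within the spread between lists, which is that between letters (p = 0.667, exact permutation test, two-sided). The test does not pair the lists by letter. With 2 lists against 2, the smallest p is 0.333, so no difference could pass. Covered length gave a like picture, with 41.0 and 29.4 Mb in letters A and B at 240 min and 33.7 and 23.5 Mb at 120 min. The ratio of the means was 1.23, with 1.22 in letter A and 1.25 in letter B (exact two-sided permutation p = 0.667). Counted over regions of every width, covered length was 514 and 499 Mb at 240 min and 552 and 511 Mb at 120 min, so the direction turned to a ratio of 0.952. Without the 240 min list of letter A the ratio of region numbers was 0.947, and without the 120 min list of letter B it was 0.994, so that the direction turned both times; each of these leaves a time with 1 list, and the letters differ in length. Along the time course the numbers were 23518 in unstimulated cells, 19028 at 60 min, 18429 at 120 min and 22313 at 240 min in letter A. In letter B they were 17227, 12070, 11842 and 14327 at the same times. The 120 min list was the shortest of its letter, and the 240 min list stayed below the unstimulated one.

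**Figure D1:**
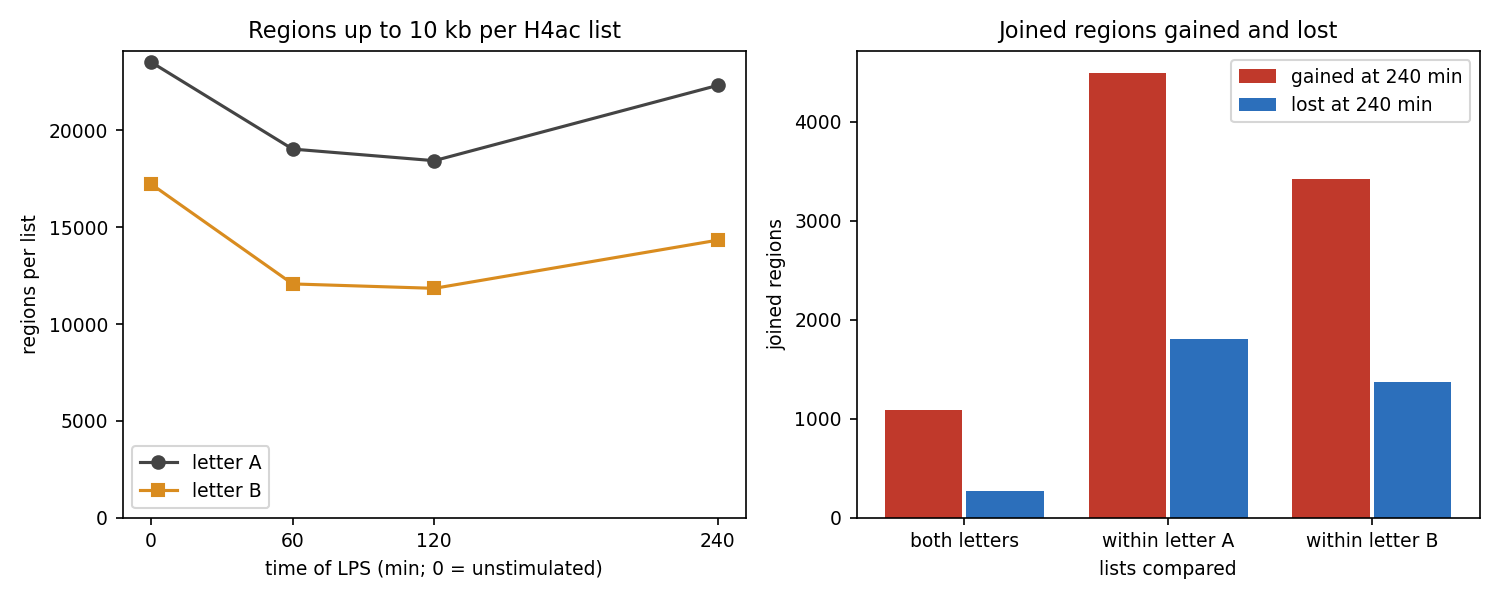
Left, number of regions up to 10 kb in each H4ac list against time of LPS in min, 1 line for each letter; right, joined regions gained (red) and lost (blue) at 240 min against 120 min, by both letters together and within each letter. The 120 min list is the shortest in both letters, and gained regions outnumber lost ones in all 3 comparisons.

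More regions were gained than lost. Of the 19827 joined regions, 1086 were gained at 240 min, which is 5.48% of them, and 273 were lost, which is 1.38%. A further 7977 were kept, and 4947 (25.0%) were held by 1 list alone. Gained regions made up 9.73% of the 11156 regions held by both 240 min lists, and lost regions 2.98% of the 9170 held by both 120 min lists. Within letter A, 4492 regions (22.7%) were held at 240 min and not at 120 min and 1807 (9.11%) the other way, and within letter B the counts were 3417 (17.2%) and 1372 (6.92%). Gained regions were 2.49 times as many as lost ones in letter A and 2.49 times as many in letter B. Over both letters the ratio was 3.98.

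The excess of gained regions changed with the lists used, and it was smaller in lists cut to equal length. When each list was shortened by score to the length of the shortest, 727 regions were gained and 547 lost. Without the 240 min list of letter B 4497 were gained and 424 lost, without the 120 min list of letter A 2984 and 543, without the 120 min list of letter B 1404 and 1671, and without the 240 min list of letter A 1622 and 1112. Without the 120 min list of letter B, lost regions therefore outnumbered gained ones. Leaving out a list also lowers the number of lists that a call needs, and the part that list length has in these counts was not tested. The lists of the same time were about as alike as those of the same letter. The Jaccard index over base pairs was 0.441 between the 240 min lists and 0.415 between the 120 min lists, against 0.443 between the times in letter A and 0.419 in letter B.

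Gained, lost and kept regions were of like width. Gained regions had a median of 2590 bp (140 to 18490 bp), lost regions 2840 bp (190 to 10830 bp) and kept regions 2400 bp (180 to 48860 bp). The median distance to the nearest kept region was 42.6 kb for gained regions, 36.3 kb for lost ones and 33.0 kb for kept ones. Within 10 kb of a kept region lay 18.3% of gained, 17.9% of lost and 17.1% of kept regions. The changed regions thus stood mostly apart from kept ones, at shares close to that of kept regions beside each other.

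Inside kept regions the listed length was close between the times. The median covered length was 1680 bp at 240 min and 1670 bp at 120 min in letter A, and 1670 bp at 240 min and 1590 bp at 120 min in letter B. The median difference over regions, 240 min minus 120 min, was 30.0 bp in letter A and 30.0 bp in letter B, where coordinates come in steps of 10 bp. In letter A 52.5% of kept regions were longer at 240 min and 46.3% shorter, and in letter B 52.6% and 46.4%. Regions longer by over 1 kb in both letters numbered 360 (4.51% of kept regions), and regions shorter by over 1 kb in both letters numbered 262 (3.28%).

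Most changed regions, like most kept ones, were touched by wider acetylated regions of the other time. Regions over 10 kb in the 120 min lists of letters A and B touched 66.7% and 65.1% of gained regions, against 64.8% and 61.7% of kept regions. In the 240 min lists they touched 66.3% and 62.3% of lost regions, against 61.7% and 59.4% of kept regions. The share over all joined regions was not counted. Where present, the narrowest such region had a median width of 53.9 and 69.5 kb for gained regions, and 30.4 and 40.4 kb for lost ones. It was up to 20 kb wide for 14.2% and 11.2% of gained and 25.3% and 20.5% of lost regions. It was over 100 kb for 24.7% and 27.6% of gained and 20.1% and 23.4% of lost regions. Of the 1086 gained regions, 589 (54.2%) were touched by a region of some width in both 120 min lists, 253 (23.3%) in 1 of them and 244 (22.5%, Wilson 95% interval 20.1 to 25.0) in none. Of the 273 lost regions, 149 (54.6%) were touched in both 240 min lists, 53 (19.4%) in 1 and 71 (26.0%, 21.2 to 31.5) in none. Intervals here and below cover counting error over regions only, and regions are not replicates of a condition. Regions of 10 to 100 kb touched gained regions in 33.5% and 32.0% of cases in the 240 min lists of letters A and B, against 42.0% and 37.5% in the 120 min lists. For lost regions the shares were 46.2% and 38.8% in the 240 min lists and 30.8% and 27.1% in the 120 min lists. For kept regions they were 39.6% and 31.8% in the 240 min lists and 37.9% and 31.0% in the 120 min lists. Gained regions thus had such wide regions more often at 120 min, and lost regions more often at 240 min, in both letters. The calls favour this pattern, because a position listed only past 10 kb at 1 time counts as not held there. It is therefore no result apart from the calls. A region absent up to 10 kb can therefore be listed at a wider scale, and the 244 gained and 71 lost regions with none are called strictly gained and strictly lost below.

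The best-scored changed regions show this. Ranked by their mean percentile of score within the lists that hold them, all 10 best gained regions and 9 of the 10 best lost regions had a wider region in both lists of the other time. The best gained region lay on chromosome 4 at 144834211 to 144842820 (mm9) and scored 4.6112 in the 240 min list of letter A and 4.5443 in that of letter B. The 120 min lists had regions of 42.1 kb in letter A and 42.6 kb in letter B there, which scored 3.6560 and 4.0936. No unstimulated or 60 min list held it up to 10 kb, and all 7 Pol II lists touched it. The best lost region, on chromosome 12 at 56564991 to 56570080, scored 4.6208 and 4.3214 in the 120 min lists of letters A and B. At 240 min the lists of letters A and B had regions of 11.6 and 11.8 kb over it, just past the 10 kb limit. These scored 4.9872 and 4.6450, above the 120 min scores, so the region counts as lost only by the width limit. Whether scores of different lists share a scale is not known. The gained region on chromosome 7 at 25904701 to 25907080, eighth by rank, was touched by all 7 p50 lists, 4 of the 5 p65 lists and 1 ATF3 list. It scored 4.0692 in letter A and 2.9625 in letter B at 240 min. Both unstimulated lists held it, and so did the 60 min list of letter A. The best 4 kept regions were neighbours on chromosome X between 166410621 and 166437670, and 1 of them held the top score of each of the 4 lists. Each was touched by all 7 Pol II lists, by 3 to 5 of the 5 H3K27me3 lists, by 3 to 5 of the 5 p65 lists and by 1 to 3 of the 3 ATF3 lists, so these positions are listed for nearly every target.

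The tenth lost region had no region of any width at 240 min. It covered 860 bp on chromosome 7 at 16774621 to 16775480, scored 4.3334 in letter A and 2.5620 in letter B at 120 min, and was held by both 60 min lists and neither unstimulated list. All 5 H3K27me3 lists touched it and no Pol II list did. Some strictly changed regions were picked after their values were seen. The best-ranked strictly gained region, on chromosome 4 at 140423891 to 140429540, scored 3.5522 and 2.5326 in the 240 min lists of letters A and B. All 4 earlier H4ac lists held it and 1 ATF3 list touched it. A strictly lost region on chromosome 8 at 74672841 to 74675850 scored 3.3446 and 2.9589 in the 120 min lists of letters A and B. Both 60 min lists and neither unstimulated list held it, and all 7 Pol II lists touched it.

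Over both letters, lost regions were held by both unstimulated lists less often than gained ones. At 60 min the order was the other way round. Both unstimulated lists held 608 of the 1086 gained regions (56.0%, 53.0 to 58.9) and 68 of the 273 lost regions (24.9%, 20.2 to 30.4). They held 83.0% of kept regions and 59.8% of all joined regions. Both 60 min lists held 268 gained regions (24.7%, 22.2 to 27.3) and 134 lost regions (49.1%, 43.2 to 55.0), against 81.0% of kept regions and 47.6% of all joined ones. The shares of gained regions in unstimulated lists and of lost regions at 60 min were thus near those of all joined regions, and the other 2 shares were well below. Many regions outside these shares were held by a single list. At least 1 unstimulated list held 71.1% of the gained class and 41.4% of the lost class. For at least 1 list from 60 min, the gained class came to 49.3% and the lost class to 70.0%. For both lists, the difference, gained minus lost, was 31.1 percentage points in unstimulated cells (95% interval 24.9 to 36.7). At 60 min it was -24.4 points (-30.8 to -18.0).

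Both differences changed with the lists used, and leaving out a list also changes which regions are called. In the join of all 4 lists, 786 regions were held by both 120 min lists and the 240 min list of letter A only. Such regions can count as lost once that 240 min list is left out, beside the 273 lost ones. Likewise, 1289 regions held by the 120 min list of letter A alone can count as lost without that of letter B. The part of these changed calls in the values below was not tested. Without the 240 min list of letter A, both unstimulated lists held 48.3% of gained and 53.2% of lost regions, so the direction turned. Without the 240 min list of letter B the difference was 10.1 points. When the lists of 1 letter were joined by themselves, which calls more regions than the join of all 4 lists (3871 gained and 1575 lost in letter B, 5222 and 2077 in letter A), the shares could be had within a letter. Within letter B alone they held 54.8% of gained and 45.8% of lost regions, and within letter A alone 40.9% and 24.2%. With regions up to 1 kb the shares were 14.2% and 11.6%. At 60 min the direction turned without the 120 min list of letter B, where both lists held 31.7% of gained and 19.7% of lost regions. Without the 120 min list of letter A the difference at 60 min was -8.83 points, without the 240 min list of letter A -37.2 and without that of letter B -36.7. Within letter B alone the shares at 60 min were 30.0% of gained and 52.6% of lost regions, and within letter A alone 18.3% and 23.2%. Counted up to 10 kb, both unstimulated lists held 50.8% of strictly gained and 23.9% of strictly lost regions. Up to 10 kb, both 60 min lists held 16.4% of strictly gained regions (12.3 to 21.6), below their share of all gained regions, and 47.9% of strictly lost ones. With earlier regions of any width, both unstimulated lists touched 59.0% of strictly gained and 38.0% of strictly lost regions. Both 60 min lists then touched 32.0% of strictly gained and 70.4% of strictly lost regions.

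**Figure D2:**
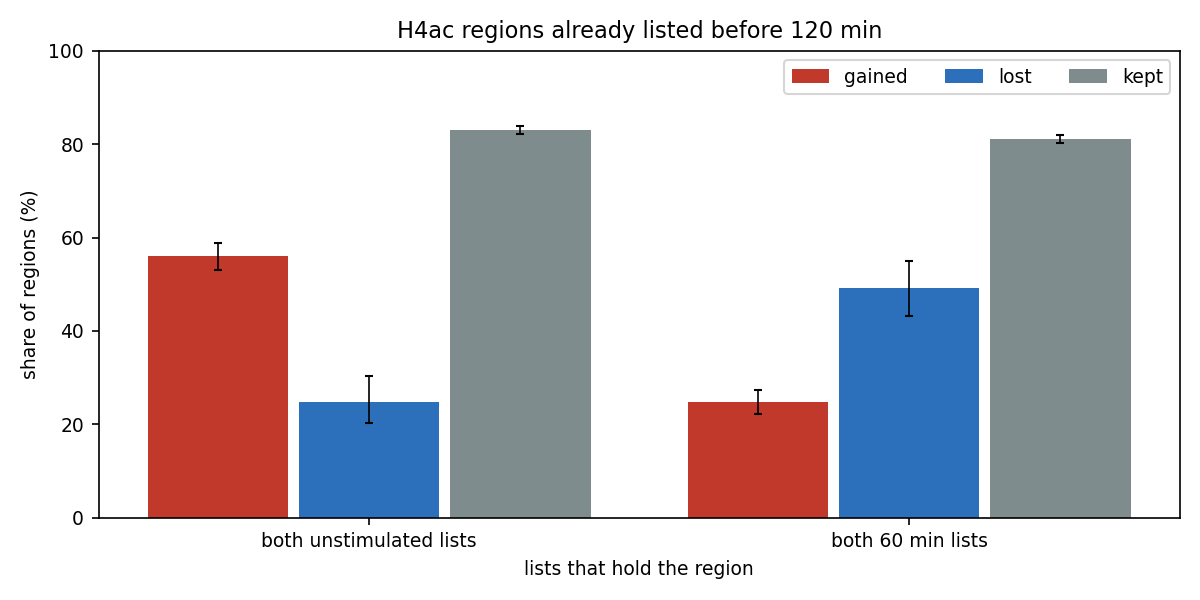
Share (%) of gained (red), lost (blue) and kept (grey) regions held by both unstimulated H4ac lists and by both 60 min lists; error bars are Wilson 95% intervals over regions. Gained regions stand at 56.0% and lost ones at 24.9% in unstimulated cells, and at 24.7% and 49.1% at 60 min.

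The earlier lists can be read together for each region. Of gained regions, 216 (19.9%) were held by both unstimulated and neither 60 min list, so that up to 10 kb they were listed in resting cells, not at 60 or 120 min, and again at 240 min. Another 209 (19.2%) were held by all 4 earlier lists, 24 (2.21%) by both 60 min lists alone and 251 (23.1%) by none of the 4. Of lost regions, 61 (22.3%) were held by both 60 min lists and neither unstimulated list, 14 (5.13%) by both unstimulated lists alone, 45 (16.5%) by all 4 and 57 (20.9%) by none. Of kept regions, 5803 (72.7%) were held by all 4 earlier lists and 160 (2.01%) by both unstimulated and neither 60 min list. Another 234 (2.93%) were held by both 60 min and neither unstimulated list, and 289 (3.62%) by none. These combinations were not counted over all joined regions, so the shares of gained and lost regions have no such level beside them. The rest of each class was held by other combinations.

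Pol II lay on fewer gained regions than kept or all joined regions, while lost regions were near all joined ones or above them at 60, 120 and 240 min in letter A. The Pol II list of letter A at 240 min touched 15.3% of gained, 20.9% of lost and 30.7% of kept regions, and that at 120 min touched 9.67% of gained, 20.1% of lost and 27.0% of kept regions. Over all joined regions the shares were 20.7% at 240 min and 17.9% at 120 min. The 240 min Pol II list of letter B touched 19.5% of gained, 24.5% of lost, 35.2% of kept and 25.0% of all joined regions. At 60 min the list of letter A touched 15.3% of gained, 23.4% of lost, 30.8% of kept and 21.7% of all joined regions, and that of letter B 18.7%, 29.7%, 30.0% and 22.4%. The unstimulated Pol II list touched 24.7%, 19.0% and 40.6% of gained, lost and kept regions, and 28.8% of all joined ones. The gained minus lost difference in the 240 min Pol II list of letter A was -5.59 points (-11.2 to -0.646). It turned to 3.21 points with H4ac lists of equal length and to 2.56 without the 240 min H4ac list of letter A. Region by region, the letter A lists of Pol II touched 81 gained regions at 240 min and not at 120 min and 20 the other way, a ratio of 4.05. Among lost regions these counts were 15 and 13, and among kept regions 790 and 498, a ratio of 1.59. The 240 min list held 4590 Pol II regions up to 100 kb and the 120 min list 4033, and the titles of these libraries open with different dates. Of strictly gained regions the 240 min Pol II list of letter A touched 6 (2.46%, 1.13 to 5.26), and of strictly lost ones 7 (9.86%, 4.86 to 19.0). That of letter B touched 6.56% (4.08 to 10.4) and 12.7% (6.81 to 22.4), so the intervals overlapped in both lists.

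ATF3 was profiled at 240 min in 3 libraries, whose lists differed widely in overlap with H4ac. The ATF3 list of letter A touched 19.5% of gained regions (17.3 to 22.0), 13.6% of lost (10.00 to 18.1) and 10.8% of kept ones (10.1 to 11.5). The list of letter B touched 1.10%, 0.366% and 0.564%, and that of letter C 1.57%, 0.733% and 1.12%, of gained, lost and kept regions. Over all joined regions the lists of letters A, B and C touched 9.22%, 0.449% and 0.913%. The gained share was the highest of the 3 classes in each list, while the level in letter A was far above that of the other lists. In letters B and C this rests on few regions, with 12 and 17 gained and 1 and 2 lost regions touched. The intervals of gained and kept regions overlapped in both of these lists. The gained minus lost difference in the letter A list, 5.97 points (0.876 to 10.3), turned to -7.32 without the 240 min H4ac list of letter B and to -0.601 with H4ac regions up to 1 kb. Without the 120 min list of letter B it was 15.5 points and without that of letter A 3.83. Of strictly gained regions 23.0% (18.1 to 28.6) touched the ATF3 list of letter A, and of strictly lost regions 8.45% (3.93 to 17.2). The list of letter B touched 0.410% of strictly gained and 0% of strictly lost regions, and that of letter C 1.64% and 1.41%.

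The p50 subunit lay more often on lost than on gained regions in its lists at 60 min of LPS. The p50 list of letter A touched 2.30% of gained, 9.52% of lost and 4.49% of kept regions, that of letter B 1.93%, 6.96% and 3.69%, and that of letter C 2.76%, 10.3% and 4.40%. The list of letter D, the shortest, touched 0.645%, 0.733% and 0.639%, which is 2 regions among the lost ones. Over all joined regions the lists of letters A, B and C touched 3.23%, 2.67% and 3.19%, so that lost regions stood above that level and gained regions somewhat below it. In letter A the difference, gained minus lost, was -7.22 points (-11.4 to -4.09), and it was -0.203 points without the 120 min H4ac list of letter B. Without the 120 min H4ac list of letter A it was -3.23 points and without the 240 min list of letter A -3.91. With p50 regions of every width it turned to 4.17 points. Among the 61 lost regions held by both 60 min lists and neither unstimulated list, the p50 list of letter A touched 18.0% and that of letter C 16.4%. Among the 234 kept regions with the same earlier state, the list of letter A touched 15.4% and that of letter C 12.0%, with overlapping intervals. Of the 24 gained regions with that state, the list of letter A touched 0 and that of letter C 1. The unstimulated p50 lists of letters A, C and D also lay more often on lost than on gained regions. They touched 0.460%, 0.645% and 0.276% of all gained regions and 1.47%, 2.56% and 1.10% of all lost ones, which is 4, 7 and 3 lost regions.

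The p65 lists touched at most 3.26% of any class. At 60 min the p65 list lettered X touched 0.368% of gained, 1.10% of lost, 3.26% of kept and 1.83% of all joined regions. At 120 min the list lettered X touched 0.460%, 2.20%, 2.53% and 1.49%. The 60 min list of letter A touched 0.460%, 0%, 0.301% and 0.308%, and the 120 min list of letter C 0.921%, 2.20%, 0.953% and 0.716%. H3K27me3, which Polycomb complexes deposit on silenced chromatin, was rare on all classes. Its 240 min list touched 1.84% of gained, 4.03% of lost and 1.43% of kept regions, and its 120 min list 1.20%, 5.49% and 1.40%. Of the 19827 joined regions the 240 min list touched 428 (2.16%) and the 120 min list 397, and the gained share at 240 min was near that level. The gained minus lost difference at 240 min was -2.19 points (-5.30 to -0.166). It turned to 2.69 with H3K27me3 regions of every width, to 1.11 with H4ac regions up to 1 kb and to 0.462 among strictly changed regions.

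**Figure D3:**
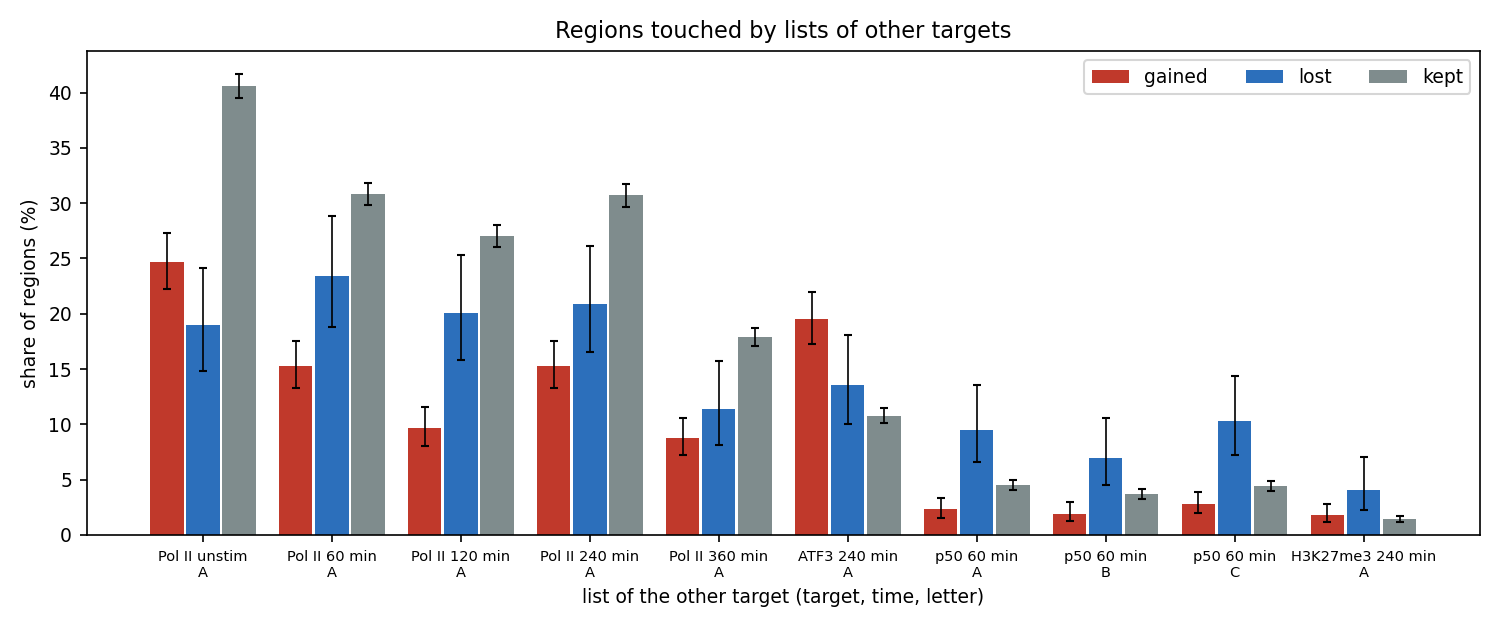
Share (%) of gained (red), lost (blue) and kept (grey) H4ac regions touched by a region of each list of another target, named under the bars by target, time and letter; error bars are Wilson 95% intervals over regions. Kept regions are highest for Pol II, gained regions for the ATF3 list of letter A, and lost regions for the p50 lists.

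**Figure D4:**
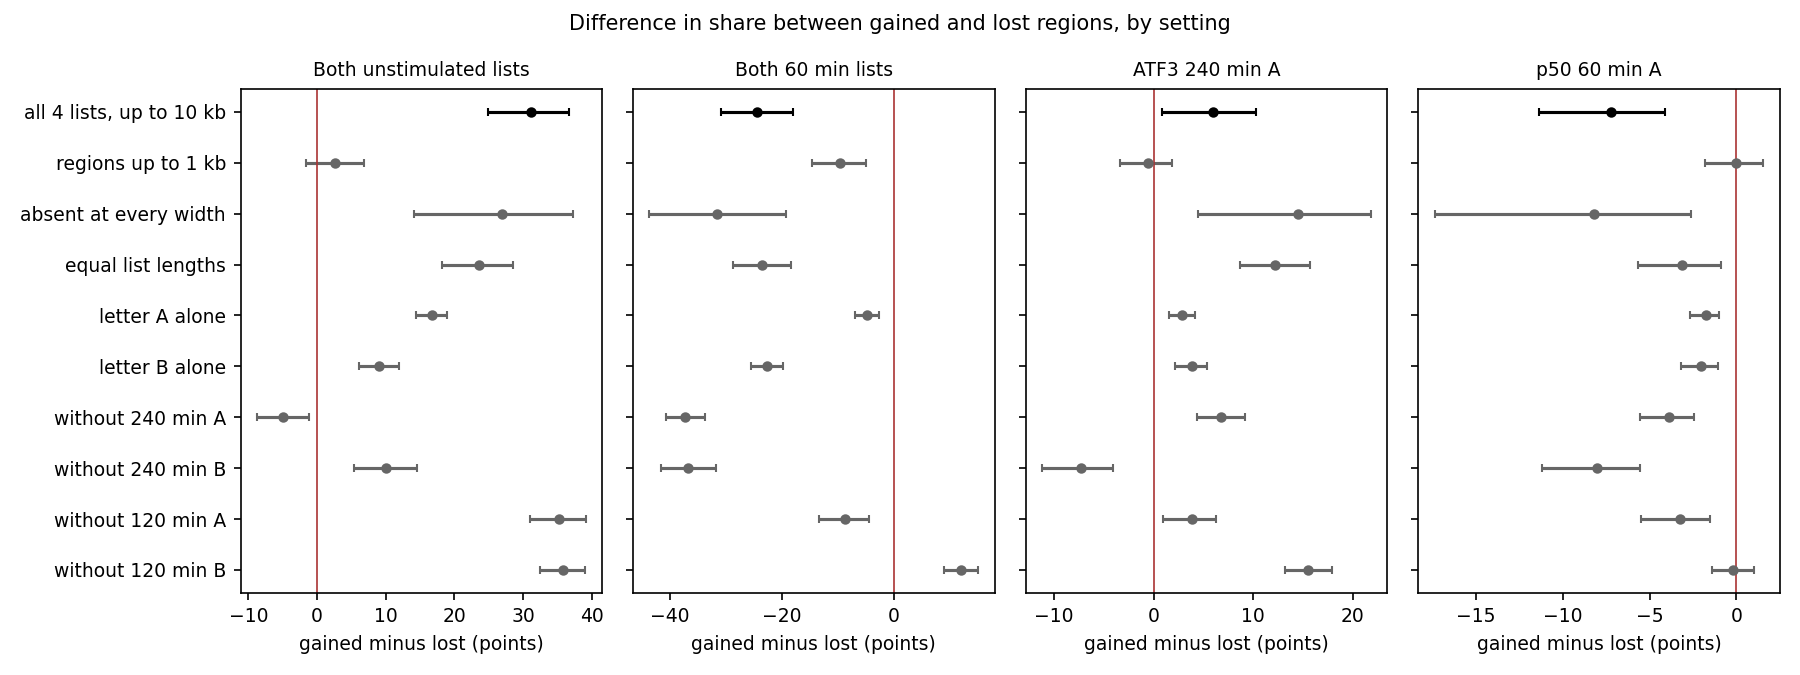
Difference in share between gained and lost regions (percentage points, gained minus lost) under 10 settings, for regions held by both unstimulated lists, held by both 60 min lists, touched by the ATF3 list of letter A and touched by the p50 list of letter A; bars are 95% intervals over regions and the red line marks 0. Points cross 0 without the 240 min list of letter A (unstimulated lists), without the 120 min list of letter B (60 min lists), and without the 240 min list of letter B or with regions up to 1 kb (ATF3). Settings that leave out a list also change which regions are called gained or lost.

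Gained regions outnumbered lost ones on 20 of the 21 chromosomes with a joined region, and the Y chromosome had 1 joined region and neither class. On those 20, gained regions were between 3.94% of joined regions on chromosome 6 and 6.95% on chromosome 1. Lost regions reached 2.36% on chromosome 9, where 49 were gained and 23 lost, and were fewest on chromosome X, with 26 gained and 2 lost (0.316%). In windows of 1 Mb, 655 held a gained region, 208 a lost one and 99 both. The most in 1 window were 6 gained regions, among others on chromosome 3 between 15263891 and 15923090, and 4 lost ones, among others on chromosome 10 between 17203621 and 17582200.

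**Figure D5:**
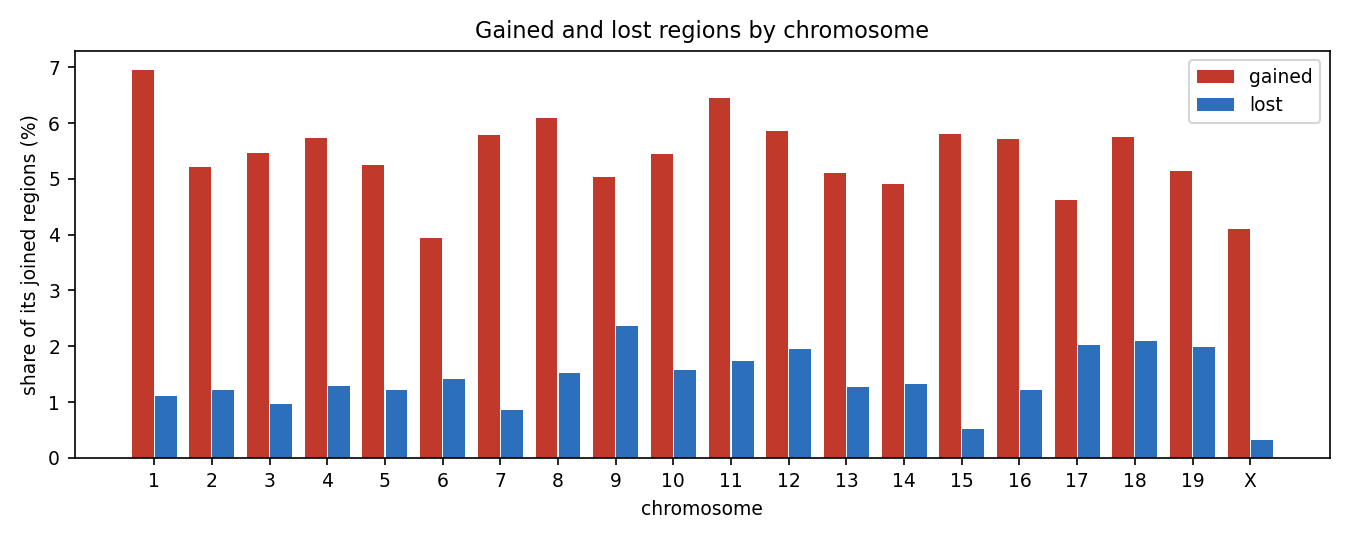
Gained (red) and lost (blue) regions as a share (%) of the joined regions of each chromosome, without the Y chromosome. Gained shares run from 3.94% to 6.95%, and lost shares from 0.316% to 2.36%.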

How the data were processed

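The authors deposited 1 region list per library; per the submitters' processing notes the genome build is mm9, while the aligner is not given in the sources used here, nor are the region caller and its thresholds. The deposited score per region is the authors' own and ranked regions within a list only. The width limit was 10 kb, and 100 kb for lists of Pol II and H3K27me3, with an overlap of at least 1 bp; coordinates are 1-based. Python 3.11.15, numpy 2.4.6 and matplotlib 3.10.9 were used. The code for the calls was tested on simulated lists of planted regions that lay apart from each other. None of those was nested or wider than 10 kb, so that test does not cover lists nested like the deposited ones. List lengths were compared by an exact permutation test, shares were given Wilson 95% intervals, and differences of shares the interval built from these, with no test across regions.

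Named regions were the 10 best gained, 10 best lost and 5 best kept by mean percentile of score within their lists, of which some are printed. The members, lists and comparisons were chosen with earlier results of these data known. Shares were recast as gained minus lost differences, for 1 list of each of 4 targets, after single shares had been seen to move under most settings. Planned results on gene starts, gene lists and cell type markers were not run, because no mm9 annotation was used here, so the cell type was not checked.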

Additional observations from a re-analysis of the deposited data

How the results depend on the processing

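Of 113 alternatives over 11 results, 56 stayed within the bounds of the value reported, 44 moved past them and 13 changed direction; each share difference rests on 1 list of its target, and the other lists were not recomputed. Gained and lost regions numbered 144 and 31 at every width, 446 and 124 up to 100 kb, 562 and 415 up to 1 kb, and 244 and 71 when absent at every width. With 50% of the region covered 479 were lost, and with equal list lengths 727 were gained and 547 lost; letter A alone gave 5222 and 2077, and letter B alone 3871 and 1575. Leaving out 1 list, which also changes which regions are called, gave 1404 to 4497 gained and 424 to 1671 lost regions. The ratio of region numbers ran from 0.947 to 1.55 when 1 list was left out, turning at 0.947 and 0.994, and that of covered length from 1.03 to 1.50; at every width the ratio of covered length was 0.952. With the letter as replicate block the counts stayed 1086 and 273, by construction, and the ratios 1.21 and 1.23 (exact sign test, p = 0.5, the smallest it allows). The median difference inside kept regions was 30.0 bp in each letter and 15.0 bp up to 1 kb. Share differences, gained minus lost, in unstimulated lists were 2.67 points up to 1 kb, 23.5 at equal lengths, 16.7 in letter A, 9.00 in letter B and -4.96 to 35.8 without 1 list. At 60 min they were -9.71 up to 1 kb, -31.5 when absent at every width, -4.81 in letter A and -37.2 to 11.9 without 1 list. For ATF3 they were -0.601 up to 1 kb, 14.5 when absent at every width, 12.2 at equal lengths and -7.32 to 15.5 without 1 list. For p50 they were 4.17 at every width of p50, -0.0223 up to 1 kb, -3.14 at equal lengths, -1.78 in letter A, -2.05 in letter B and -8.01 to -0.203 without 1 list. For Pol II they were 3.21 at equal lengths and -9.83 to 2.56 without 1 list, and for H3K27me3 2.69 at every width of H3K27me3, 1.11 up to 1 kb, 0.462 when absent at every width and -2.83 to -0.215 without 1 list. The causes were not tested. Read depth is unknown, so a region missing from a list may lie under its threshold.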
